A study of Mus musculus with 22 samples.

Results

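TET1, TET2 and TET3, which oxidise methylated cytosine, the cytidine deaminase APOBEC1, and MBD4, APEX1, XRCC1 and PARP1 of base excision repair are enzymes and partners proposed to take part in active DNA demethylation. Their 8 genes were taken by name from the 19938 mouse genes that the array measured with a single gene symbol, and all 8 were found and entered every test. Expression was measured in 22 mouse cell line samples, 1 Affymetrix array each. Embryonic germ (EG) cells are pluripotent lines grown from primordial germ cells, here of embryos at day 8.5, and embryonic stem (ES) cells are pluripotent lines derived from embryos before implantation. The EG samples were 4 lines in serum (EG FCS, 1 female and 3 male), 4 lines kept in serum for 2 days and then moved to 2i (EG 2is, 2 female and 2 male) and 4 lines derived directly in 2i (EG 2i, 3 female and 1 male). The ES samples were 5 in serum (ES FCS) and 5 in 2i (ES 2i), with 2 female and 3 male in each. Serum medium held fetal calf serum (FCS) and leukaemia inhibitory factor (LIF), and its cells lay on feeder fibroblasts. 2i medium was serum-free N2B27 with LIF and inhibitors of MEK (PD0325901) and GSK3 (CHIR99021), and its cells lay on laminin, so medium and feeder layer changed together. Every group carried the same mixed 129SvEv background with the Oct4-delta-PE-GFP transgene, a fluorescent reporter driven by an Oct4 promoter without its proximal enhancer. Established ES lines were also switched between the media, and the labels do not say which samples are the same line. The comparisons ask how culture, cell origin and sex relate to the level of each gene.

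The 3 TET proteins convert 5-methylcytosine to 5-hydroxymethylcytosine and on to further oxidised bases, which can be lost at replication or cut out by a glycosylase. APOBEC1 is best known for editing the messenger RNA of apolipoprotein B, and deamination of methylated cytosine would leave a thymine opposite guanine, which the glycosylase MBD4 removes. APEX1 then cuts the abasic site, XRCC1 holds the polymerase and ligase that fill and seal the gap, and PARP1 senses the strand break. Pluripotent cells in 2i are known for low DNA methylation, and mRNA levels say nothing directly about enzyme activity or methylation.

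The deposited values are log2 expression values after RMA normalization, and a difference of 1 on this scale is a 2-fold change. Medians per array lay between 5.54 and 5.62, and within groups the correlation between arrays was 0.982 to 0.998. The labelled sex matched the level of the Y-linked gene Eif2s3y in all 22 arrays (4.61 to 4.88 in female and 7.55 to 8.82 in male lines). The cell type label reads EGCs for all 22 samples, the 10 ES samples included, while titles and source names separate EG from ES, and grouping followed the titles. All 11 pluripotent cell markers were above background in every group. The mean of their log2 levels was lower on every 2i array than on any serum array. It was 10.79 to 11.01 in EG FCS and 10.77 to 10.935 in ES FCS. In 2i it was 10.54 to 10.645 in EG 2is, 10.52 to 10.61 in EG 2i and 10.60 to 10.67 in ES 2i. Of these 11 markers, 2 were called higher and 3 lower in EG 2i and in EG 2is. In ES 2i 2 were called higher and 4 lower. Utf1, Dppa4, Tdgf1, Sall4 and Pou5f1 averaged lower in all 3 groups in 2i than in the matching serum group. Nanog, Esrrb and Fgf4 averaged higher in all 3, and Sox2, Zfp42 and Dppa5a moved both ways. The median difference of the 11 was -0.1 in EG 2i, -0.09 in EG 2is and -0.05 in ES 2i. Utf1 averaged 11.84 in EG FCS, 9.08 in EG 2i, 11.64 in ES FCS and 9.74 in ES 2i. Nanog averaged 11.76 in EG FCS, 12.5 in EG 2i, 11.76 in ES FCS and 12.36 in ES 2i. Feeder fibroblast markers stood apart by culture: the mean log2 level of the 20 measured markers was 6.58 to 7.33 in EG FCS, 6.58 to 7.27 in ES FCS, 6.03 to 6.15 in EG 2is, 6.01 to 6.17 in EG 2i and 5.99 to 6.19 in ES 2i. The log2 of their summed linear levels ranged from 12.5 to 13.3 in EG FCS, 12.4 to 13.3 in ES FCS, 12.6 to 12.8 in EG 2is, 12.2 to 12.6 in EG 2i and 12.7 to 12.8 in ES 2i. Acta2, the actin of contractile cells, averaged 9.52 in EG FCS and 9.19 in ES FCS and 5.01 to 5.14 in the 2i groups. Tagln, Col5a2, Lum, Dcn and Postn averaged under the highest female Eif2s3y level, 4.88, in all 3 groups in 2i. Lum was also under that level in EG FCS (4.74) and ES FCS (4.57). Fn1, Timp1 and Pdgfrb averaged higher in all 3 groups in 2i than in the matching serum group. Fn1 averaged 10.74 in EG FCS, 11.3 in EG 2is, 10.91 in EG 2i, 10.98 in ES FCS and 11.34 in ES 2i. Sparc averaged higher in ES 2i (10.98) than in ES FCS (10.36), and lower in EG 2is and EG 2i than in EG FCS. Of the 20 feeder markers 11 were called lower and 0 higher in EG 2i, 12 lower and 1 higher in EG 2is, and 13 lower and 3 higher in ES 2i. Over all genes, 11.4% were called higher and 12.5% lower in EG 2i. These shares were 12.7% and 12.9% in EG 2is, and 16.6% and 14.9% in ES 2i. The part of feeder RNA in the culture differences given here was not tested.

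Because Tet1 fell and Mbd4, Xrcc1 and, in ES lines, Apobec1 rose in 2i, the 250 bases before the annotated start of these 4 genes are shown, 5′ to 3′ on the gene's strand, with every CG dinucleotide, the site of DNA methylation, in capitals. Sequences are from RefSeq (mouse GRCm38.p6), which held a window for all 8 genes. The Tet1 window is chr10:62887325-62887574 (minus strand), Apobec1 chr6:122602445-122602694 (minus), Mbd4 chr6:115853342-115853591 (minus) and Xrcc1 chr7:24546449-24546698 (plus).
Tet1: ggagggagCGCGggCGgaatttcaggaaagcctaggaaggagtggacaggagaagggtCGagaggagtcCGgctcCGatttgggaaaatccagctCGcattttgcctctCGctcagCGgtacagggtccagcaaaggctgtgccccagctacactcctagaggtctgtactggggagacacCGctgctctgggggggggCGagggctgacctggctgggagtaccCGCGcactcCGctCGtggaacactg
Apobec1: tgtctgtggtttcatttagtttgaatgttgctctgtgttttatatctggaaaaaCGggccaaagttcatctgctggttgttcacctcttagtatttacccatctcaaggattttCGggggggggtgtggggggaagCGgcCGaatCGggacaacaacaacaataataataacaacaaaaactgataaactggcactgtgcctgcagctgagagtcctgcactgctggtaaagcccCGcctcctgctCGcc
Mbd4: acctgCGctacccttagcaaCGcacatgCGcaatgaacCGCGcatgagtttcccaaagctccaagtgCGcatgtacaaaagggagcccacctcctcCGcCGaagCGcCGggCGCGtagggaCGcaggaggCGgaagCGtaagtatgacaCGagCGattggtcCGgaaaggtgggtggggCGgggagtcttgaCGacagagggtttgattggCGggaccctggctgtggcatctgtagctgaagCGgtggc
Xrcc1: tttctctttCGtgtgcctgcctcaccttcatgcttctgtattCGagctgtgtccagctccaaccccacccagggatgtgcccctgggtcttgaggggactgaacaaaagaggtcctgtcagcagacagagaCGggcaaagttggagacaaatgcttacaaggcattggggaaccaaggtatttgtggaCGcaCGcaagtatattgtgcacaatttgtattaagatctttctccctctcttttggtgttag
The genes themselves, all protein-coding, span chr10:62804570-62887469 (Tet1), chr3:133463677-133545136 (Tet2), chr6:83362373-83457208 (Tet3), chr6:122577792-122603024 (Apobec1), chr6:115840697-115853400 (Mbd4), chr14:50924949-50927188 (Apex1), chr7:24546699-24573438 (Xrcc1) and chr1:180568891-180600999 (Parp1). The Apobec1, Tet2 and Tet3 windows lie wholly inside the annotated gene and those of Tet1 and Mbd4 partly, so each precedes a start that is not the gene's outermost. The Xrcc1 window held 5 CG dinucleotides and the Apobec1 window 7, near the median of 6 over all 32851 windows of that length. Tet1 had 15 CG, Parp1 16, Tet3 17, Mbd4 22, Apex1 28 and Tet2 51, and 99.9% of windows held fewer than that of Tet2, which lies inside the gene. Among the members that rose in 2i, the windows thus held from 5 CG (Xrcc1) to 22 CG (Mbd4). Whether these windows lie at the starts used in these cells was not tested. On either strand, the GC box (GGGCGG, in 32.7% of all windows) was found in 6 of the 8 windows and not in those of Apobec1 and Xrcc1. The CCAAT box (CCAAT, 33.85% of windows) was found in those of Tet3, Mbd4, Apex1 and Xrcc1. The Mbd4 window also held the ETS core (CCGGAA, 12.03%) and 2 NRF1 half-sites (TGCGCA, 6.43%), and E-boxes (CACGTG, 6.02%) lay before Apex1 and Parp1. The letters AAGGTCA (ESRRB core, 4.08%), TTCNNNGAA (STAT, 7.02%), CTTTGAT (TCF, 3.21%) and ATGCAAA (octamer core, 4.12%) were in none of the 8 windows, and TTCNNNGAA and CCGGAA can overlap each other. No binding or methylation was measured at these windows.

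In 2i, Tet1 was lower and Mbd4 and Xrcc1 were higher than in serum in EG and in ES lines, Apobec1 was higher in ES lines, and Parp1 was lower in EG lines derived in 2i. A gene was called at an adjusted p under 0.05 in limma, with batch and sex as terms and Benjamini-Hochberg adjustment over all 19938 genes. For EG 2i against EG FCS 4 of the 8 genes were called, 2 higher and 2 lower, against 23.9% of all genes (11.4% higher and 12.5% lower), and the groups did not overlap for 3 members against 24.2% of genes. For EG 2is against EG FCS 3 of 8 were called, 2 higher and 1 lower (all genes 25.6%, with 12.7% higher and 12.9% lower), and 3 did not overlap (24.5%). For ES 2i against ES FCS 4 of 8 were called, 3 higher and 1 lower (all genes 31.6%, with 16.6% higher and 14.9% lower), and 3 did not overlap (22.2%). Their median log2 difference was 0.14, 0.04 and 0.25 in these comparisons, and that of all genes 0.01, -0.01 and 0.00. Both EG comparisons use the same 4 EG FCS lines and are not independent of each other.

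**Figure D1:**
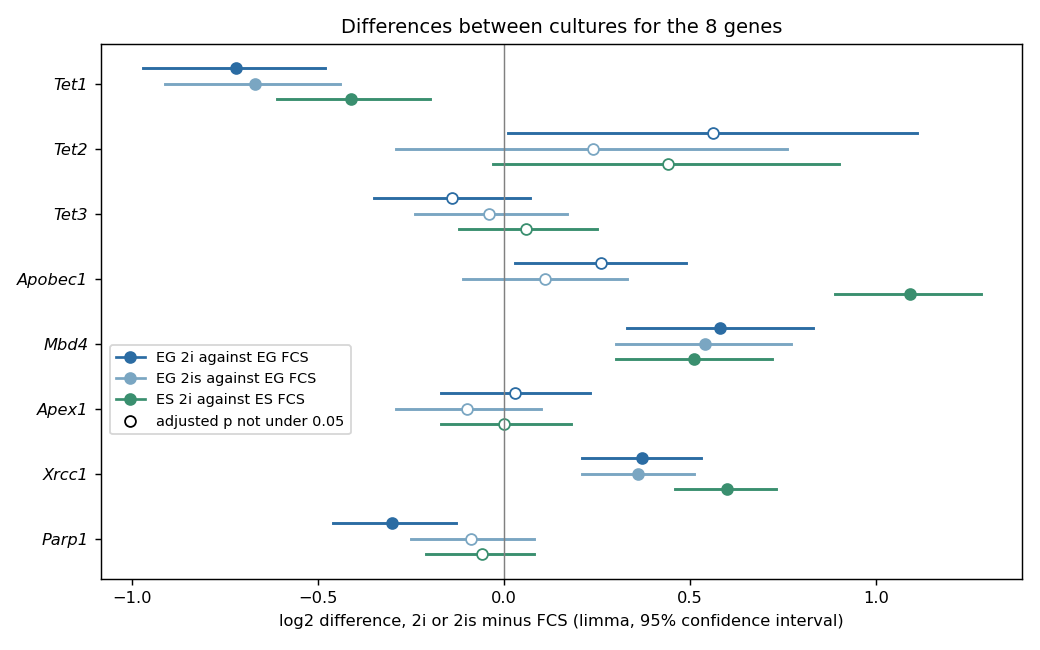
Log2 difference between 2i or 2is and FCS (horizontal axis) for each of the 8 genes, with limma's 95% confidence interval; filled points passed an adjusted p of 0.05. Tet1 lies left of 0 in all 3 comparisons (-0.72, -0.67 and -0.41), Mbd4 and Xrcc1 lie right of 0, and Apobec1 is farthest right in ES lines (1.09).

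Tet1 encodes the TET oxidase best known from ES cells. Its log2 level was 11.31, 11.60, 11.44 and 11.56 in the EG FCS lines, and 10.69, 10.73, 10.84 and 10.85 in the EG 2i lines. The EG 2is lines stood at 10.67, 10.63, 11.06 and 10.91. Every EG line in serum was above every EG line in either 2i regime. ES FCS lines had 11.28, 11.56, 11.15, 11.27 and 11.28, and ES 2i lines 10.99, 10.67, 11.14, 10.86 and 10.86. These ES groups did not overlap either, though the lowest ES FCS line (11.15) and the highest ES 2i line (11.14) nearly met, and both were female lines of batch 2. Tet1 fell by 0.72 on the log2 scale in EG 2i (SE 0.11, n = 4 and 4, 1.65-fold lower, limma adjusted p = 1.2e-04). It fell by 0.67 in EG 2is (SE 0.11, n = 4 and 4, limma adjusted p = 1.4e-04) and by 0.41 in ES 2i (SE 0.10, n = 5 and 5, 1.32-fold lower, limma adjusted p = 0.00308). By group mean the order was EG FCS (11.48 ± 0.13), ES FCS (11.31 ± 0.15), ES 2i (10.90 ± 0.18), EG 2is (10.82 ± 0.20) and EG 2i (10.78 ± 0.08; SD, n = 4 or 5), and ES FCS and ES 2i were the only neighbours whose ranges did not overlap. The EG response less the ES response was -0.32 (95% interval -0.64 to 0.00), which was not called (limma adjusted p = 0.31). Within batch 1 the ES difference was -0.59 (limma adjusted p = 0.0238), and within batch 2 it was -0.28 (limma adjusted p = 0.0647), so the ES call was lost there. The size in EG 2i depended on how sex was fitted. With a sex term in each culture the EG 2i difference was -0.90 (SE 0.11, limma adjusted p = 1.4e-05). Among male lines alone, with 1 in EG 2i, it was -0.68.

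**Figure D2:**
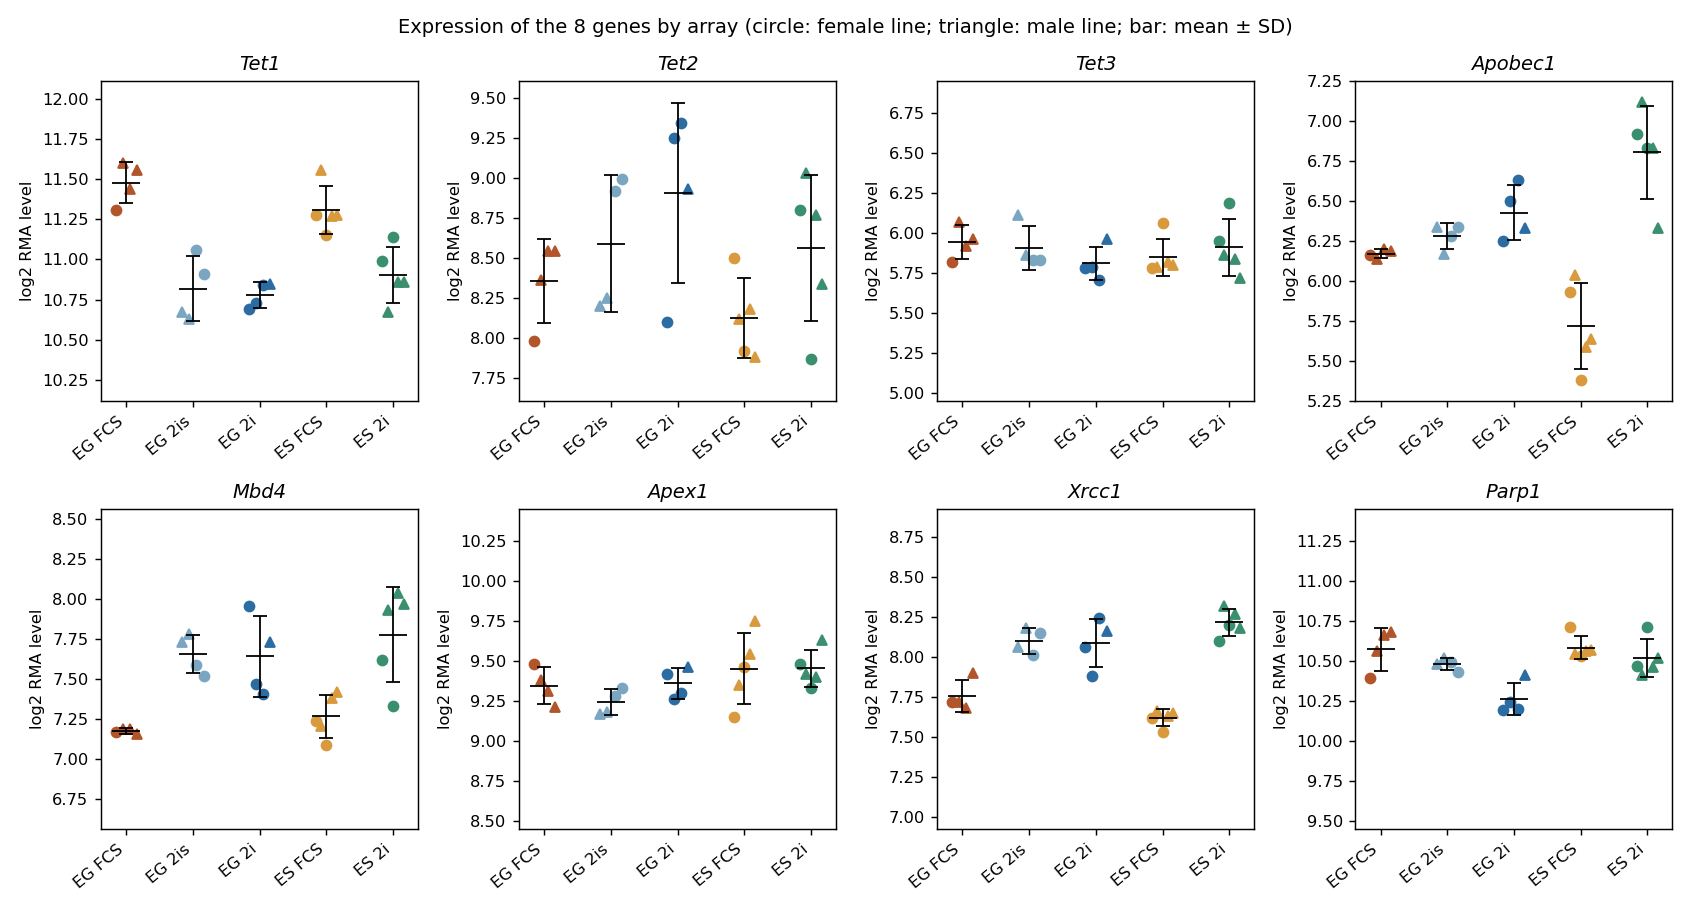
Log2 level of each of the 8 genes on every array by group, with its own vertical axis per gene; circles are female and triangles male lines, and bars the mean ± SD. Tet1 steps down and Mbd4 and Xrcc1 step up from FCS to 2i, and in Apobec1 the ES group means (5.72 and 6.80) lie outside the EG group means, with 1 ES 2i array (6.33) inside the EG range.

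Tet1 was measured by 3 probe sets, and Tet3 by 2. All 3 Tet1 probe sets were called lower in 2i, the other 2 by 0.70 and 0.74 in EG 2i, by 0.58 and 0.66 in EG 2is and by 0.48 and 0.50 in ES 2i. Tet3 encodes the TET oxidase known from the zygote. By the probe set used, its levels ran from 5.82 to 6.07 in EG FCS, 5.83 to 6.11 in EG 2is, 5.71 to 5.96 in EG 2i, 5.78 to 6.06 in ES FCS and 5.72 to 6.19 in ES 2i. All 5 ranges overlapped, and no culture comparison called Tet3 (differences of -0.14, -0.04 and 0.06, limma adjusted p = 0.366, 0.829 and 0.65). The second Tet3 probe set behaved differently. Its group mean was 5.07 in EG FCS, 5.44 in EG 2is, 5.56 in EG 2i, 5.16 in ES FCS and 5.41 in ES 2i. These levels are near the background level of 4.88, and EG FCS line 3, at 4.80, was under it. It rose by 0.38 in EG 2i (limma adjusted p = 0.0215 in a fit over all probe sets) and by 0.32 in EG 2is (limma adjusted p = 0.0427), while the ES difference was 0.25 (limma adjusted p = 0.0676). The 2 Tet3 probe sets correlated at -0.02 over the 22 arrays, so the direction for Tet3 depends on the probe set. Which parts of the transcript each probe set covers was not analysed here.

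**Figure D3:**
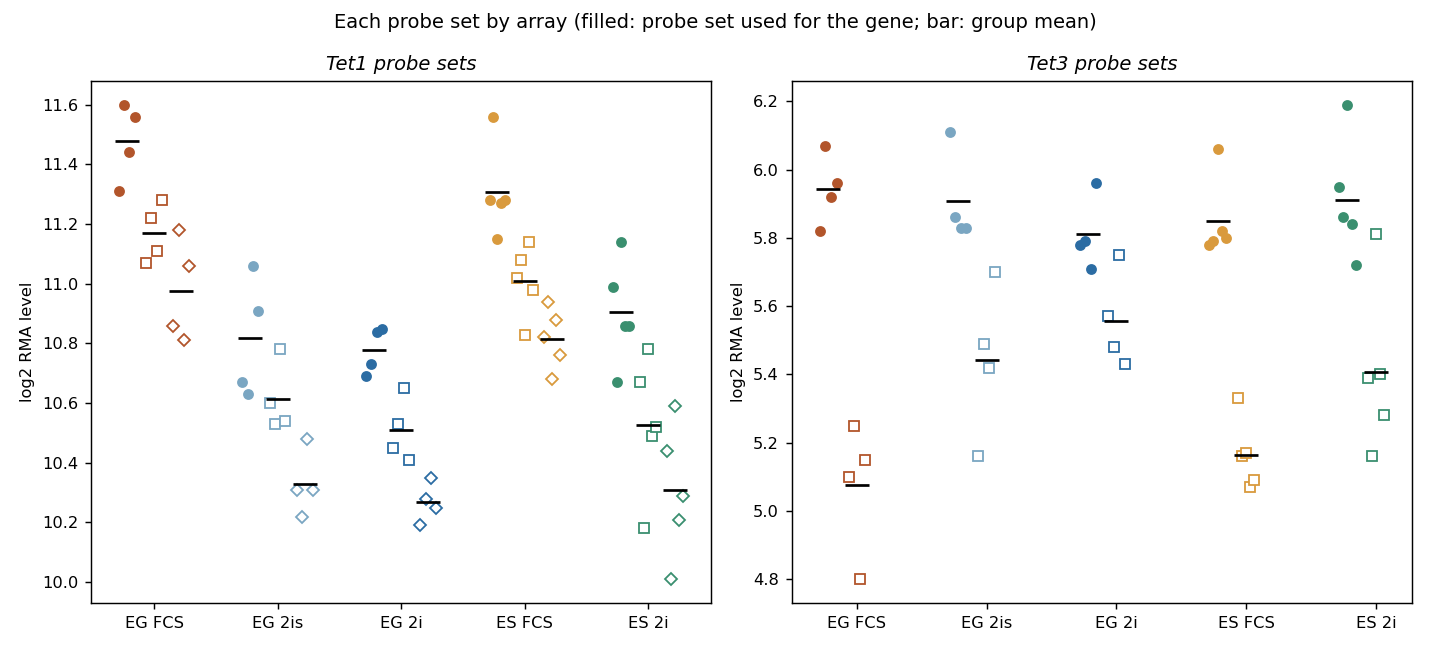
Log2 level of each Tet1 probe set (left) and each Tet3 probe set (right) on every array, by group; filled points are the probe set used for the gene, open points the others, and bars group means. The 3 Tet1 probe sets fall together from FCS to 2i, whereas the open Tet3 points rise from a mean of 5.07 in EG FCS to 5.56 in EG 2i and the filled ones do not.

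Tet2, the third TET oxidase, varied more within groups than any of the other 7 genes. It stood at 7.98, 8.36, 8.54 and 8.54 in EG FCS, at 8.20, 8.25, 8.92 and 8.99 in EG 2is, and at 8.10, 9.25, 9.34 and 8.93 in EG 2i. In EG 2i 3 lines were above every EG FCS line and 1 female line, at 8.10, was not. ES FCS lines had 8.505, 8.12, 7.92, 8.18 and 7.88, and ES 2i lines 8.80, 9.03, 7.87, 8.77 and 8.34. The ES 2i group spanned the ES FCS group, and its lowest value belonged to a female line of batch 2. The differences of 0.56 in EG 2i (95% interval 0.01 to 1.11, limma adjusted p = 0.138), 0.24 in EG 2is (-0.29 to 0.76, limma adjusted p = 0.564) and 0.44 in ES 2i (-0.03 to 0.90, limma adjusted p = 0.155) did not pass the test. Without EG 2i line 1 the EG 2i difference in Tet2 was 0.80 and was called (limma adjusted p = 0.0142). Among male lines alone the ES difference was 0.65 (limma adjusted p = 0.00336), and the EG 2is difference turned to -0.26, which was not called (limma adjusted p = 0.266). The pooled SD within groups was 0.405, larger than that of 97.3% of genes.

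Apobec1 rose most of the 8 genes, in ES lines. ES FCS lines had log2 levels of 5.93, 6.04, 5.38, 5.59 and 5.64, and ES 2i lines 6.92, 7.12, 6.83, 6.83 and 6.33. Each ES line in 2i was above each ES line in serum. The rise was 1.09 (SE 0.09, n = 5 and 5, 2.12-fold, limma adjusted p = 5.9e-08), and it was 1.03 within batch 1 (limma adjusted p = 1.0e-04) and 1.12 within batch 2 (limma adjusted p = 0.00342). EG FCS lines lay close together at 6.16, 6.14, 6.20 and 6.19. EG 2is lines had 6.34, 6.17, 6.28 and 6.34, and EG 2i lines 6.25, 6.50, 6.63 and 6.33. The EG 2i lines all lay above the EG FCS lines, but by 0.26 (95% interval 0.03 to 0.49), which was not called (limma adjusted p = 0.0984). The EG 2is difference was 0.11 (-0.11 to 0.33, limma adjusted p = 0.504).

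The response of Apobec1 to 2i was smaller in EG than in ES lines. The test of that difference, EG 2i minus FCS less ES 2i minus FCS, gave -0.83 (SE 0.14, 95% interval -1.13 to -0.53, limma adjusted p = 0.00939), and Apobec1 was the 1 member called among 8, against 1.44% of all genes (0.873% lower). By group mean the order of Apobec1 was ES 2i (6.80 ± 0.29), EG 2i (6.43 ± 0.17), EG 2is (6.28 ± 0.08), EG FCS (6.17 ± 0.03) and ES FCS (5.72 ± 0.27; SD, n = 4 or 5), so the EG lines lay between the ES groups. EG FCS and ES FCS were the only neighbours that did not overlap. In 2i, Apobec1 was lower in EG than in ES lines, by 0.62 for EG 2i (SE 0.12, n = 4 and 5, limma adjusted p = 0.00723) and by 0.76 for EG 2is (SE 0.11, n = 4 and 5, limma adjusted p = 0.0141). It was the 1 of 8 members called in each, against 3.72% of genes for EG 2i against ES 2i (1.2% higher, 2.52% lower) and 0.0451% for EG 2is against ES 2i (all lower). The ranges of EG and ES lines in 2i overlapped through ES 2i line 5, at 6.33. In serum, EG minus ES was 0.21 with the batch term (95% interval -0.03 to 0.45, limma adjusted p = 0.999) and 0.45 between the plain means. Batch 2 held 6 ES arrays and no EG array, and in ES lines the Apobec1 mean was lower in batch 2 than in batch 1, at 5.54 against 5.99 in serum and 6.66 against 7.02 in 2i. Batch 2 and the ES lines in it cannot be told apart. Within batch 1 Apobec1 differed by -0.59 for EG 2i against ES 2i (limma adjusted p = 0.0246), by -0.74 for EG 2is against ES 2i (limma adjusted p = 0.027) and by -0.77 for the responses, where the call was lost (limma adjusted p = 0.182) and 0 genes were called (1960 had an unadjusted p under 0.05). The EG 2i difference from ES 2i was not called with group terms alone (-0.38, limma adjusted p = 0.0751), without the batch term (-0.39, 0.0837), in male lines (-0.76, 0.154) or with only these groups in the fit (-0.61, 0.212). For EG 2is the call was lost under the same 4 settings (-0.52, limma adjusted p = 0.132; -0.52, 0.118; -0.83, 0.0522; -0.74, 0.306). Without EG 2is line 2 or ES 2i line 2 the EG 2is difference from ES 2i was -0.72 in each case and was not called (limma adjusted p = 0.0958 and 0.105).

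**Figure D4:**
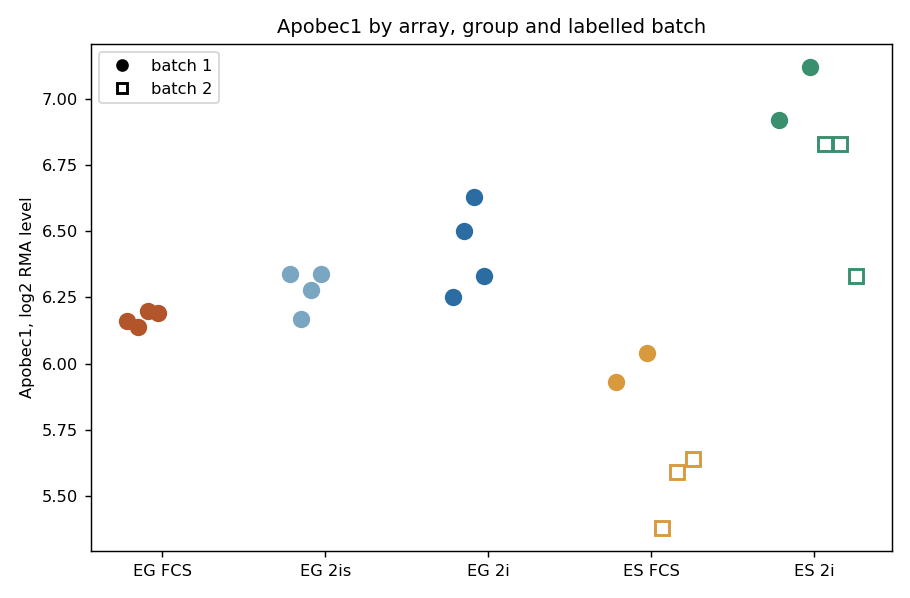
Log2 level of Apobec1 (vertical axis) on each array by group, with arrays of batch 1 as filled circles and of batch 2 as open squares. The ES 2i arrays lie above the ES FCS arrays in both batches, and the EG groups lie between 6.14 and 6.63.

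Mbd4, the glycosylase that removes thymine or uracil opposite guanine, rose in all 3 culture comparisons. EG FCS lines were nearly identical at 7.17, 7.19, 7.19 and 7.16. EG 2is lines had 7.73, 7.78, 7.59 and 7.52, and EG 2i lines 7.96, 7.47, 7.41 and 7.73. All 8 EG lines in 2i or 2is were above all EG lines in serum. Mbd4 rose by 0.58 in EG 2i (SE 0.12, n = 4 and 4, 1.49-fold, limma adjusted p = 0.00118) and by 0.54 in EG 2is (SE 0.11, n = 4 and 4, 1.45-fold, limma adjusted p = 0.00144). ES FCS lines had 7.24, 7.21, 7.09, 7.38 and 7.42, and ES 2i lines 7.62, 7.93, 7.33, 8.04 and 7.97. These groups overlapped through ES 2i line 3, a female line at 7.33. The ES rise was 0.51 (SE 0.10, n = 5 and 5, 1.42-fold, limma adjusted p = 5.3e-04), and 0.55 and 0.48 within batches 1 and 2 (limma adjusted p = 0.022 and 0.00889). EG and ES responses differed by 0.07 (95% interval -0.25 to 0.39, limma adjusted p = 0.878).

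Apex1, the main endonuclease at abasic sites, was not called in any of the 10 comparisons. Its levels were 9.21 to 9.48 in EG FCS, 9.17 to 9.33 in EG 2is, 9.26 to 9.46 in EG 2i, 9.15 to 9.75 in ES FCS and 9.33 to 9.63 in ES 2i, all overlapping. The difference from serum was 0.03 in EG 2i (95% interval -0.17 to 0.23), -0.10 in EG 2is (-0.29 to 0.10) and 0.00 in ES 2i (-0.17 to 0.18). The intervals of this fit to all arrays leave out changes of 0.3 or more in either direction. Within batches the ES difference had opposite signs. It was 0.20 in batch 1 (SE 0.11, limma adjusted p = 0.291) and -0.13 in batch 2 (SE 0.09, limma adjusted p = 0.352), and neither was called.

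Xrcc1, the scaffold of single-base repair, rose in all 3 culture comparisons. EG FCS lines had 7.72, 7.72, 7.68 and 7.90, EG 2is lines 8.06, 8.18, 8.01 and 8.15, and EG 2i lines 8.06, 7.88, 8.24 and 8.16. EG 2is lines all lay above EG FCS, and EG 2i overlapped it through EG 2i line 2, at 7.88, and EG FCS line 4, at 7.90. The rise was 0.37 in EG 2i (SE 0.07, n = 4 and 4, 1.29-fold, limma adjusted p = 0.00109) and 0.36 in EG 2is (SE 0.07, n = 4 and 4, limma adjusted p = 7.7e-04). ES FCS lines had 7.62, 7.66, 7.53, 7.63 and 7.65, and ES 2i lines 8.10, 8.32, 8.20, 8.27 and 8.18. The ES groups were far apart compared with their spread, with a rise of 0.60 (SE 0.06, n = 5 and 5, 1.51-fold, limma adjusted p = 7.3e-07), and of 0.57 and 0.61 within batches 1 and 2 (limma adjusted p = 0.0049 and 9.1e-04). The EG rise was 0.23 smaller than the ES rise, which was not called (95% interval of the difference -0.43 to -0.02, limma adjusted p = 0.258).

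Parp1, which encodes the poly(ADP-ribose) polymerase that senses strand breaks, fell in EG lines derived directly in 2i. EG FCS lines had 10.39, 10.56, 10.66 and 10.68, EG 2is lines 10.48, 10.52, 10.49 and 10.43, and EG 2i lines 10.19, 10.24, 10.20 and 10.41. The only female EG FCS line, at 10.39, was its lowest, and the only male EG 2i line, at 10.41, was its highest, and these 2 made the groups overlap. The fall was 0.30 with sex in the fit (SE 0.08, n = 4 and 4, 1.23-fold lower, limma adjusted p = 0.00943), and the call was lost among male lines alone (-0.23, limma adjusted p = 0.164), with only these groups in the fit (-0.20, limma adjusted p = 0.108) and after a second quantile normalization (-0.22, limma adjusted p = 0.0794). EG 2is differed from EG FCS by -0.09 (95% interval -0.25 to 0.08, limma adjusted p = 0.483). ES FCS lines had 10.71, 10.54, 10.53, 10.56 and 10.57, and ES 2i lines 10.47, 10.41, 10.71, 10.46 and 10.52, a difference of -0.06 (-0.21 to 0.08, limma adjusted p = 0.549). Of the 10 S phase genes, 3 were called lower in EG 2i, 2 in EG 2is and 0 in ES 2i. The shares of all genes called lower were 12.5%, 12.9% and 14.9%. The mean log2 level of all 10 was 10.05 to 10.25 in EG 2i, 10.16 to 10.22 in EG 2is and 10.27 to 10.40 in EG FCS. It was 10.26 to 10.32 in ES 2i and 10.30 to 10.43 in ES FCS. The part of S phase in the Parp1 difference was not tested.

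The route into 2i, direct or after 2 days in serum, separated none of the 8 genes by the test: 0 were called between EG 2i and EG 2is, against 0% of genes (0 called by limma, 2116 with an unadjusted p under 0.05). Parp1 was the 1 member whose EG 2i and EG 2is values did not overlap (4.31% of genes), by -0.21 (95% interval -0.37 to -0.05, limma adjusted p = 0.334). Tet1 differed by -0.05 (-0.28 to 0.18), Mbd4 by 0.04 (-0.19 to 0.28) and Xrcc1 by 0.01 (-0.14 to 0.16) between the 2 routes. In serum no member separated EG from ES lines in the fit (0 of 8 called, against 0.01% of genes; limma, with 979 genes at an unadjusted p under 0.05). Apobec1 and Xrcc1 were the 2 members whose EG FCS values all lay above the ES FCS values (2.77% of genes did not overlap), and the fitted Xrcc1 difference was 0.11 (-0.06 to 0.27, limma adjusted p = 0.999). In 2i, Parp1 was the 1 member whose EG 2i and ES 2i values did not overlap (9.69% of genes), by -0.23 (-0.41 to -0.06, limma adjusted p = 0.13), and EG 2is and ES 2i overlapped for all 8 (3.3% of genes did not overlap).

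Sex separated none of the 8 genes at the threshold. In 2i cultures, 7 female and 6 male lines, 0 of 8 were called against 5.17% of genes (3.05% higher and 2.12% lower in female lines), and 0 did not overlap against 1.32%. Mbd4 came closest, at 7.56 ± 0.21 in female and 7.86 ± 0.13 in male lines (SD, n = 7 and 6), a fitted difference of -0.30 (95% interval -0.49 to -0.11, limma adjusted p = 0.0591). It was called without EG 2i line 1 (-0.35, limma adjusted p = 0.00327). For Tet1 the difference was 0.20 (0.04 to 0.35, limma adjusted p = 0.129), and it was called without EG 2i line 4 (0.30, limma adjusted p = 0.0362). In serum, 3 female and 6 male lines, 0 of 8 were called against 0.0251% of genes (0.015% higher and 0.01% lower), and 0 did not overlap against 3.36%; limma gave 1054 genes an unadjusted p under 0.05 there and 4253 in 2i. In serum Tet1 differed by -0.19 (-0.38 to 0.00) and Mbd4 by -0.11 (-0.34 to 0.13).

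Without terms for batch or sex, the 5 groups, which differ in cell origin and culture, accounted for most of the variance of some members and little of others. The share of variance lying between the 5 groups was 88.4% for Xrcc1, 80.7% for Tet1, 80.6% for Apobec1, 65.3% for Mbd4, 63.3% for Parp1, 35.0% for Tet2, 28.1% for Apex1 and 13.9% for Tet3, beside a median of 37.5% over all genes. Xrcc1 and Parp1 varied least within groups (pooled SD 0.097 and 0.098, median of genes 0.132). Over the 22 arrays, Tet1 correlated at -0.81 with Mbd4 and -0.73 with Xrcc1, Apobec1 at 0.82 with Xrcc1, and Mbd4 at 0.77 with Xrcc1. Tet1 and Parp1 correlated at 0.62. These correlations share the culture groups and batches among their points and describe these arrays only.

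The other pathway genes came from 8 lists of TET, deaminase and base excision genes, of which 42 genes entered the tests, 34 of them outside the 8 members. Tdg, whose probe sets are listed with a second symbol, was not analysed here. Of the 34 other genes, 4 were called higher and 6 lower in EG 2i, 8 higher and 5 lower in EG 2is, and 9 higher and 7 lower in ES 2i, with median differences of -0.02, 0.01 and 0.06. Over all genes the shares called higher and lower were 11.4% and 12.5%, 12.7% and 12.9%, and 16.6% and 14.9% in these comparisons, and they are also the background of the list counts that follow. Idh1, the cytosolic isocitrate dehydrogenase that makes the TET cofactor alpha-ketoglutarate, rose by 0.87 in EG 2i (SE 0.12, limma adjusted p = 2.3e-05), by 0.92 in EG 2is (limma adjusted p = 6.2e-06) and by 1.14 in ES 2i (SE 0.10, limma adjusted p = 7.3e-08). Its mean was 9.99 ± 0.17 in EG FCS, 10.83 ± 0.25 in EG 2i, 9.93 ± 0.10 in ES FCS and 11.07 ± 0.12 in ES 2i (SD, n = 4 or 5). Idh2, of the same list, was called higher in ES 2i (0.69, limma adjusted p = 0.00563). It was not called in EG 2i (-0.03, limma adjusted p = 0.942) or EG 2is (0.38, limma adjusted p = 0.205). Ung, a glycosylase that removes uracil, moved opposite to Mbd4, falling by 0.65 in EG 2i (SE 0.08, limma adjusted p = 6.2e-06), by 0.50 in EG 2is (limma adjusted p = 4.7e-05) and by 0.43 in ES 2i (limma adjusted p = 4.1e-05), where it was not called within batch 1 (-0.35, limma adjusted p = 0.0719). Smug1, another listed glycosylase, was called higher by 0.27 in EG 2i, EG 2is and ES 2i (limma adjusted p = 0.04, 0.0364 and 0.0147). Its group means, 5.02 to 5.32, were near the background level of 4.88. In ES 2i the glycosylases Ogg1 and Neil1, which act on oxidised bases, rose by 0.47 (limma adjusted p = 1.3e-04) and 0.38 (limma adjusted p = 0.00191). Within batch 1 their differences of 0.39 and 0.40 were not called (limma adjusted p = 0.0504 and 0.117). Ogg1 was also called higher in EG 2is, by 0.28 (limma adjusted p = 0.0279). The difference of the EG and ES responses to 2i was not called for Ogg1 or Neil1 (limma adjusted p = 0.253 and 0.285). Neil2 was called higher in EG 2is (limma adjusted p = 0.00714), but its EG FCS lines, at 4.66 to 4.85, were all under the background level of 4.88, so the fitted difference of 0.37 has no exact size. Of the 10 measured glycosylases, Mbd4 included, 2 rose and 1 fell in EG 2i, 5 rose and 2 fell in EG 2is, and 4 rose and 2 fell in ES 2i.

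**Figure D5:**
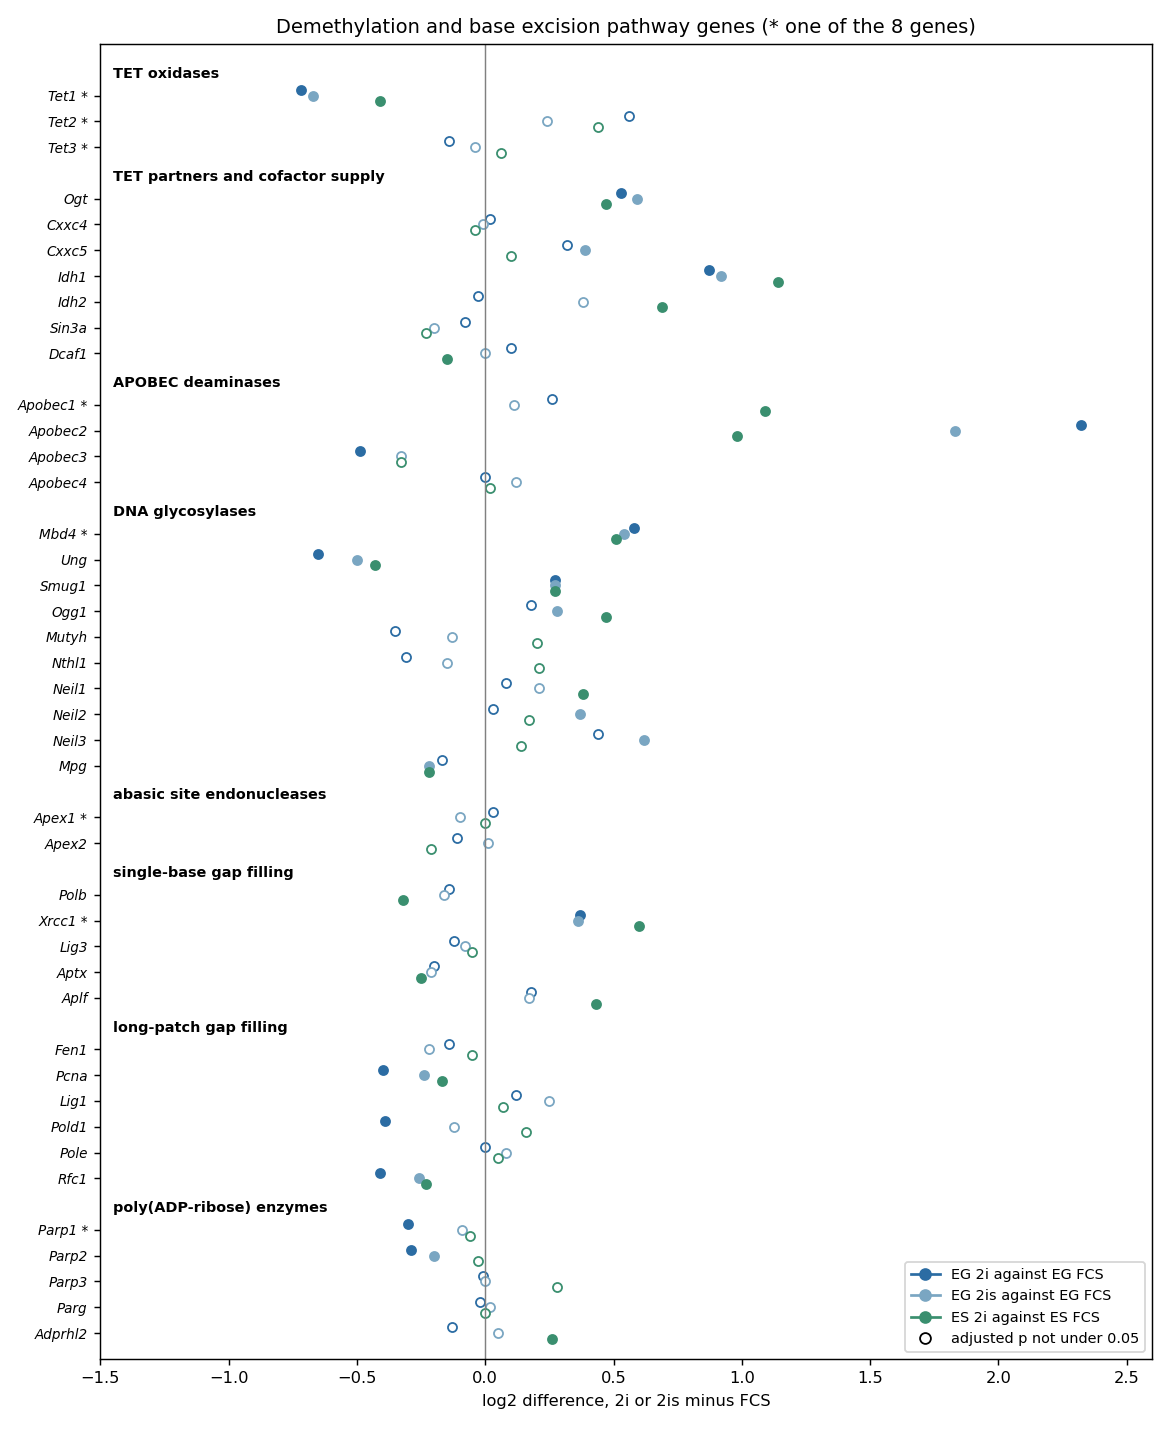
Log2 difference between 2i or 2is and FCS (horizontal axis) for the 42 measured pathway genes by list, an asterisk marking the 8 members; filled points passed an adjusted p of 0.05. Apobec2 lies farthest right (2.32 in EG 2i), and within the glycosylases Mbd4 and Ung lie on opposite sides of 0.

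Apobec2, a deaminase family member known from muscle, rose more than Apobec1 in EG lines. Its EG FCS lines ranged from 5.68 to 6.12, its EG 2is lines from 6.85 to 8.44 and its EG 2i lines from 7.85 to 8.84. The rise was 2.32 in EG 2i (SE 0.37, n = 4 and 4, 5.01-fold, limma adjusted p = 1.2e-04) and 1.83 in EG 2is (SE 0.35, n = 4 and 4, 3.55-fold, limma adjusted p = 6.8e-04). In ES lines, 5.47 to 7.55 in serum and 6.76 to 8.10 in 2i, it was 0.98 (SE 0.31, n = 5 and 5, limma adjusted p = 0.0211). The EG response of Apobec2 exceeded the ES response by 1.34, which was not called (limma adjusted p = 0.166). Pcna, the replication clamp of long-patch repair, fell by 0.40 in EG 2i (limma adjusted p = 5.3e-04), and not at the threshold among male lines alone (-0.30, limma adjusted p = 0.0894). Of the 6 long-patch genes 3 were called lower in EG 2i, 2 in EG 2is and 2 in ES 2i, and 0 higher. The glycosylase Mutyh was lower in EG 2i than in ES 2i by 0.62 (limma adjusted p = 0.0375). That call was lost without EG 2i line 2 (-0.52, limma adjusted p = 0.0825), EG 2i line 3 (-0.52, 0.108), ES 2i line 1 (-0.70, 0.072) or ES 2i line 2 (-0.65, 0.0764). It was also lost within batch 1 (-0.52, 0.183), in male lines (-0.40, 0.273), with only these groups in the fit (-0.55, 0.394), with a sex term in each culture (-0.60, 0.0544) and after a second quantile normalization (-0.58, 0.0684). Between the sexes in 2i, the X-linked endonuclease Apex2, a relative of Apex1, was higher in female lines by 0.91 (SE 0.11, 1.88-fold, n = 7 and 6, limma adjusted p = 2.4e-04). Neil1 was lower in female lines by 0.29 (limma adjusted p = 0.0123), which was lost without EG 2i line 4 (-0.28, limma adjusted p = 0.0523) and within batch 1 (-0.29, limma adjusted p = 0.0783).

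The genes with the most similar pattern over the 22 arrays, by Pearson's r, were Cep68 and Trib1 for Tet1 (both 0.93), Dusp16 (0.90) and Dnajc5b (0.89) for Tet2, and Ssbp4 (0.76) and Olfr1221 (0.72) for Tet3. For Apobec1 they were Lrriq4 (0.89) and Coq3 (0.87), for Mbd4 Rasgrp1 (0.94) and Napepld (0.93), and for Apex1 Pclo and Aimp2 (both 0.78). Sike1 (0.95) and Hint2 (0.94) were closest to Xrcc1, and Cope (0.87) and Smarca4 (0.85) to Parp1. Trib1, for example, averaged 7.71 in EG FCS and 7.42 in ES FCS and 6.03 to 6.20 in the 2i groups. For Tet3 and Apex1 no described gene reached more than 0.78. Olfr1221 averaged 4.55 to 4.68 in all 5 groups, under the background level of 4.88, and Dnajc5b was under it in EG FCS (4.78) and ES FCS (4.56), so their likeness rests in part or in whole on levels at background.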

How the data were processed

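The deposited values are log2 expression levels per probe set. Per the submitters' processing notes the tools were RMA, Affymetrix Expression Console and limma; versions and any batch adjustment are not given in the sources used here. Per the labels' protocols, 100 ng of total RNA was labelled per array. Of 28853 probe sets, 21789 had 1 symbol, 1621 several and 5443 none. Each gene was its probe set with the highest mean, giving 19938 genes. The 8 members and all gene lists were chosen with earlier results of these data known.

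All 22 arrays were fitted with limma 3.58.1 (R 4.3.3; lmFit, eBayes), with terms for group, batch (16 and 6 arrays) and sex, and a sex term per culture for sex comparisons. P-values are two-sided, adjusted by Benjamini-Hochberg over 19938 genes, and measure only the spread between these samples, which may be technical. The number of arrays limits precision. In simulated data of 19938 genes, changes of 0.5 were recovered for 73 of 100 genes (EG 2i against FCS) and 88 of 100 (ES), and changes of 1 for 98 and 99. False calls numbered 11 and 14. No other gene had a group effect there, whereas 23.9% and 31.6% of genes were called in the data. These rates are therefore not those of the tests reported here.

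Named genes were the 8 members, up to 4 called pathway genes per comparison with the smallest adjusted p, and the 2 genes most like each member. Idh2 and Smug1 were added beside Idh1 and Ung, from the same lists. No pair of arrays was identical (0 pairs). Same-numbered samples are not labelled as one line and were not paired, though those of ES FCS and ES 2i share sex and batch. Other covariates, sample subsets, normalizations, filters, priors, probe sets and single-array omissions were tried. Python 3.11.15 and matplotlib 3.10.9 drew the figures. Promoter windows are from RefSeq, GRCm38.p6.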

Additional observations from a re-analysis of the deposited data

Results flagged for a closer look

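In 3 of 40 gene and group combinations 1 array stood apart from the rest of its group by Dixon's 95% limit, which chance flags in about 1 in 20 groups. Tet3 in EG 2is line 1 stood at 6.11, with the next line at 5.86. Tet3 in ES FCS line 3 stood at 6.06, with the next at 5.82. Parp1 in ES FCS line 1 stood at 10.71, with the next at 10.57. The response of Apobec1 to 2i differed between EG and ES lines by -0.83 (limma adjusted p = 0.00939), by the test of the difference itself.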

How the results depend on the processing

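Over all 10 comparisons and their alternatives, 1767 of 1792 member values stayed on the same side of the threshold, 16 lost and 9 gained a call and 0 changed sign while called, apart from the second Tet3 probe set, an alternative chosen after seeing the data (0.38 in EG 2i and 0.32 in EG 2is, against -0.14 and -0.04). Most of the 1792 values belong to results that the main fit did not call, which could gain a call but not lose one. Members called ran from 3 to 5 for EG 2i against EG FCS and from 3 to 5 for ES 2i against ES FCS (4 in each), and the following counts moved by over 1.5 times. EG 2i against ES 2i went from 1 to 0 with male lines only and with only the groups compared. EG 2is against ES 2i went from 1 to 0 with groups only, male lines only, no batch term and only the groups compared, and leaving out single arrays gave 0 to 1. For the difference of the responses it was 0 with male lines only and with batch 1 only. For female against male in 2i it was 1 with no batch term and with quantile normalization again, and 0 to 1 over single-array omissions. For Apobec1 the response difference was -0.85 (limma adjusted p = 0.125) in male lines. Parp1 in EG 2i against ES 2i was called with groups only (-0.26, limma adjusted p = 0.0242) and without the batch term (-0.25, 0.0384). Mbd4 between the sexes in 2i was -0.30 (0.0487) without the batch term and -0.35 (0.039) after quantile normalization again. The causes were not tested.

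With a replicate block, Tet2 in ES 2i against ES FCS was called (0.44, limma adjusted p = 0.0273), which made 5 members called in place of 4, and no other member count changed. Same-numbered ES samples correlated at -0.01 to 0.24 in their deviations from group means, over 0.1 in 2 of 5 pairs, and 1 of 5 ES FCS samples was closest to its own number.

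Counts over all genes moved more. EG 2i against EG FCS had 2282 called in male lines against 4764, and ES 2i against ES FCS 2460 in batch 1 against 6298. Over all alternatives EG 2i against ES 2i ran from 7 to 1957 (742), EG 2is against ES 2i from 0 to 70 (9), EG 2i against EG 2is from 0 to 1 (0), EG FCS against ES FCS from 1 to 6 (2), the response difference from 0 to 438 (287), and the sexes from 207 to 1804 in 2i (1031) and from 2 to 11 in serum (5), the main counts in parentheses.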
